A study of Drosophila melanogaster with 2 samples.

Results

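The genes described here are the cuticle protein genes of Drosophila melanogaster, taken as the protein-coding genes whose symbol starts with Cpr, Twdl, Lcp or Ccp followed by a digit or a capital letter. The RefSeq gene table for release 6 of the genome holds 115 of them among 13922 protein-coding genes on the 6 chromosome arms. There are 70 Cpr, 23 Twdl, 15 Lcp and 7 Ccp genes. The naming rule uses no accessibility value, but the set was picked for study with earlier results of these data known. Open chromatin was mapped by ATAC-seq, in which a transposase cuts DNA that is not covered by nucleosomes, in nuclei of the mushroom body (MB), the memory center of the fly brain. The data comprise 2 biological replicates of 1 condition, naive flies, and hold no second group to set beside them. Each replicate was a pool of fly heads, male according to the study's methods, from which GFP-tagged MB nuclei were captured with anti-GFP beads. In the sample records, these flies were w* and carried UAS-unc84::2xGFP, the nuclear tag, over tubGal80(ts), a temperature-sensitive repressor of Gal4. They also carried the mCherry RNAi control transgene of the VALIUM20 type at attP2 over R14H06-Gal4, the driver used to place the tag in MB neurons.

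The insect cuticle is a layer of chitin fibers and proteins that epidermal cells secrete at each molt. Proteins of the Cpr family carry the Rebers and Riddiford consensus, a stretch that binds chitin, and the larval cuticle proteins (Lcp) and the Ccp proteins belong to the same superfamily. The Tweedle proteins (Twdl) are a separate family of cuticle proteins, first known from mutants with a short and stout body. Many of these genes lie in tandem clusters that arose by duplication, and their transcription in the epidermis follows the pulses of the molting hormone ecdysone. Neurons secrete no cuticle.

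The deposited data are lists of peaks, which are regions where aligned fragments pile up above the local background. Replicate 1 had 17942 peaks with a median fold enrichment over that background of 2.33, and replicate 2 had 15248 peaks with a median of 2.55. Read counts are not part of these lists, so that the depth behind a single value is unknown and no interval is given. The study's methods state unequal read totals for the libraries without saying which replicate each belongs to, and whether depth bears on the peaks found in replicate 1 alone was not tested. A gene without a peak is a gene at which the authors' peak caller found none, which does not show that no fragment was there. The gene table gives the start and end of each gene without its strand, so that either end stood in for the transcription start site. A gene had a nearby peak when a peak overlapped the 500 bp on either side of its start or its end by at least 1 bp. Markers of cell types were read by the same rule, beside the 65.4% of all protein-coding genes that had a nearby peak in both replicates. A nearby peak in both replicates was found for 6 of 6 markers of MB neurons, with a median fold enrichment of 5.27, and for 4 of 4 general neuronal markers, with a median of 4.25. Of the glial markers 2 of 4 had one, and none of the 4 photoreceptor markers did. All 5 markers of epidermis and cuticle-forming cells also had one, with a median of 1.69, and these are described with the cuticle pathway genes.

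Few cuticle protein genes had a nearby peak. Of the 115 genes, 14 (12.2%) had one in both replicates, against 65.4% of all 13922 protein-coding genes. In replicate 1 there were 21 such genes (18.3%, against 68.0% of protein-coding genes), and in replicate 2 there were 14 (12.2%, against 65.6%). All 14 genes of replicate 2 were among the 21 of replicate 1, and 7 genes had a peak in replicate 1 alone. The remaining 94 genes had no peak in either replicate, whereas 68.2% of protein-coding genes had a peak in at least 1. The share of cuticle protein genes in both replicates was 53.2 percentage points lower than that of all protein-coding genes, whereas the 2 replicates differed by 6.1 points for the cuticle protein genes and by 2.3 points for all protein-coding genes. These shares are descriptions, since 2 samples of 1 condition leave nothing to test.

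**Figure D1:**
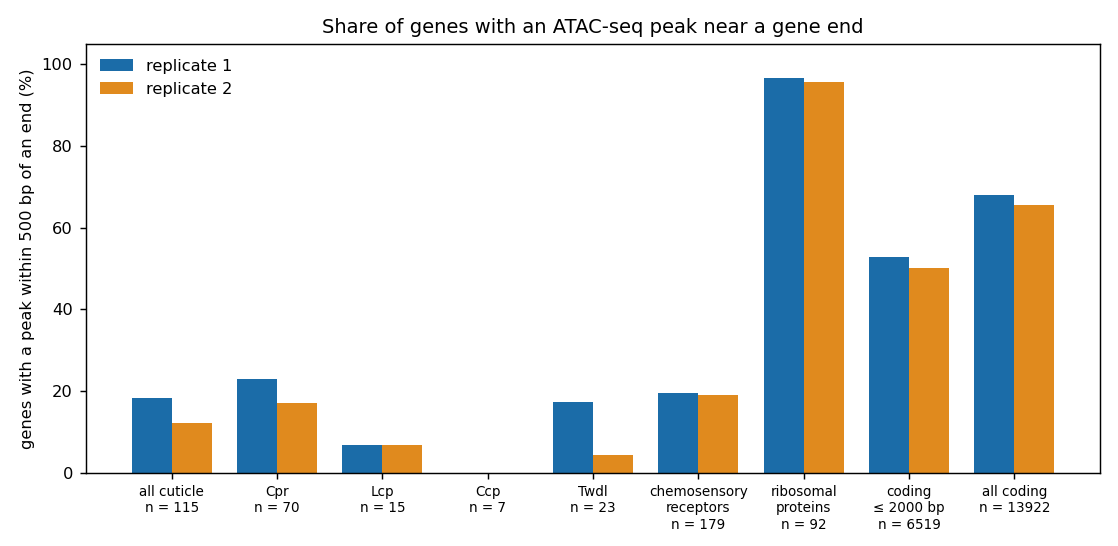
Percent of genes (y axis) with a peak within 500 bp of a start or end, for the cuticle protein genes, their families and the sets they are set beside (x axis). Bars give each replicate alone. Cuticle protein genes reach 18.3% in replicate 1 and 12.2% in replicate 2. Beside them stand 19.6% and 19.0% of chemosensory receptor genes and 68.0% and 65.6% of all protein-coding genes.

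The families were alike in having few peaks. Among the Cpr genes, 12 of 70 (17.1%) had a nearby peak in both replicates. Among the Twdl genes it was 1 of 23 (4.35%), although 4 (17.4%) had one in replicate 1. Of the 15 Lcp genes only Lcp9 had one, and none of the 7 Ccp genes had one in either replicate. None of the 6 genes on arm 2L and none of the 7 on the X chromosome had a nearby peak in either replicate. On 2R it was 4 of 26 in both replicates, on 3L 9 of 45 in replicate 1 and 7 in replicate 2, and on 3R 8 of 31 in replicate 1 and 3 in replicate 2. With so few genes in most families and arms, these counts carry little weight, and their differences were not tested. Over all arms 65.4% of all protein-coding genes had a nearby peak in both replicates, and that share was not computed for each arm.

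Cuticle protein genes are short, and short genes had fewer nearby peaks in general. Their median length was 983 bp (range 413 to 18590 bp), against 2163 bp for all protein-coding genes. Among genes of up to 2000 bp, 8 of 96 cuticle protein genes (8.33%) had a nearby peak in both replicates, against 50.0% of 6519 protein-coding genes. Among longer genes the counts were 6 of 19 (31.6%) in both replicates, against 79.0% of 7403. The lower share of the cuticle protein genes was therefore seen on both sides of that length. The authors removed reads that align to more than 1 place, which can empty near-identical copies of a gene. Genes named as copies of each other are Lcp65Ag1, Lcp65Ag2 and Lcp65Ag3, Lcp65Ab1 and Lcp65Ab2, Cpr65Ax1 and Cpr65Ax2, and Cpr67Fa1 and Cpr67Fa2. How alike their sequences are was not measured here. Whether the removal of reads lowered the share was not tested, and these genes are uncertain.

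Other gene families gave a scale for these values. The chemosensory receptor genes (Or, Gr and Ir), which act in sensory neurons outside the MB, had a nearby peak in both replicates at 33 of 179 genes (18.4%). The genes of cytoplasmic ribosomal proteins, which all cells use, had one at 88 of 92 (95.7%). Cuticle protein genes thus stood beside the chemosensory receptor genes, and the difference between these families was not tested.

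Most cuticle protein genes were also far from any peak. The distance from a gene end to the nearest edge of a peak had a median of 5288 bp in replicate 1 and 5754 bp in replicate 2. For all protein-coding genes the median was 0 bp in both replicates, meaning that a peak covered an end. A peak covered an end in both replicates at 8 cuticle protein genes (6.96%), against 54.4% of all protein-coding genes. No peak lay within 10000 bp in either replicate for 29 cuticle protein genes (25.2%), against 4.83% of all protein-coding genes. Among genes of up to 2000 bp, these shares were 29.2% and 8.3%. The median distances at that length were 6172 and 6581 bp for cuticle protein genes, against 355 and 491 bp for protein-coding genes. Chemosensory receptor genes, with their similar share of peaks, had median distances of 2443 and 3035 bp, shorter than those of the cuticle protein genes. The median distance was longest for the Lcp genes, at 8126 bp in replicate 1 and 8131 bp in replicate 2. It was 6572 and 7566 bp for the Twdl genes and 3725.5 and 4702.5 bp for the Cpr genes.

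**Figure D2:**
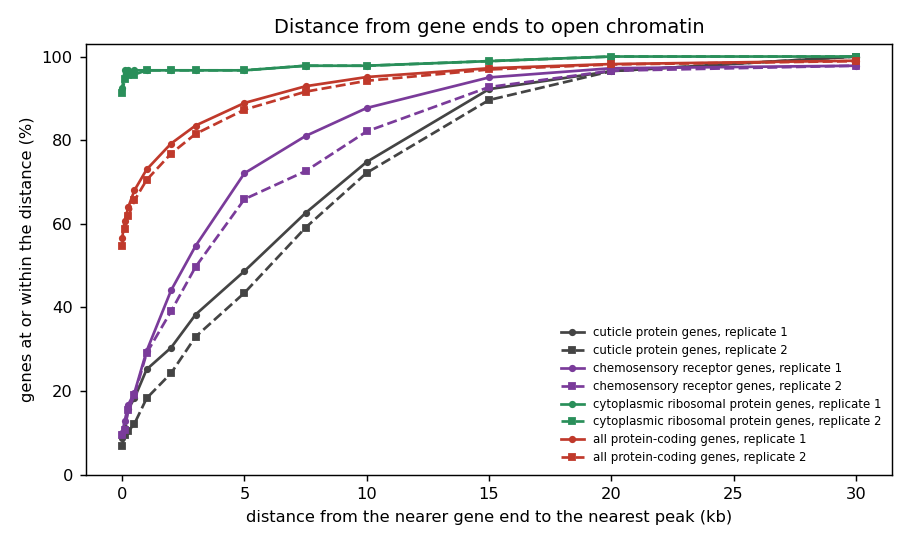
Percent of genes (y axis) with the nearest peak within a given distance of a gene end in kb (x axis), in each replicate. Lines are cuticle protein genes, chemosensory receptor genes, cytoplasmic ribosomal protein genes and all protein-coding genes. Within 5 kb lie 48.7% and 43.5% of the cuticle protein genes in replicates 1 and 2, against 88.9% and 87.3% of all protein-coding genes.

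The genes nearest to the limit of 500 bp show how much depends on it. Just inside it were Cpr76Bb, at 469 bp from a peak in replicate 1 and 2444 bp in replicate 2, TwdlC at 428 and 5337 bp, and Cpr62Bb at 311 and 326 bp. Just outside it was Cpr60D, whose nearest peak, at 534 and 579 bp, had its summit nearest to ND-19, a subunit of mitochondrial complex I. Also just outside were Lcp65Ag3, with weak peaks of 1.33-fold and 1.38-fold at 564 and 596 bp, and Cpr67Fa2, at 646 and 5145 bp. At the other extreme, Cpr49Aa lay 26325 and 26036 bp from a peak, Cpr49Ab 24307 and 24018 bp, and Lcp65Aa 21289 and 21268 bp.

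The 21 genes of replicate 1 were served by 19 peaks and the 14 genes of replicate 2 by 14 peaks, since some genes that lie close together shared a peak. Their median fold enrichment was 2.02 (range 1.32 to 6.25) in replicate 1 and 2.05 (range 1.43 to 6.21) in replicate 2, against 2.33 and 2.55 for all peaks of the same replicate. Counted by gene and taking the highest nearby peak, the median was 2.0 and 2.05 at cuticle protein genes and 3.81 and 3.77 at all protein-coding genes. At the 14 genes with a nearby peak in both replicates, the median of the mean of both replicates was 2.22, against 3.83 for all protein-coding genes.

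Each peak was then given to the gene, of any type, whose start or end lay nearest to its summit. By this rule 6 of the 19 peaks in replicate 1 (31.6%) and 5 of the 14 in replicate 2 (35.7%) belonged to a neighbor that is not a cuticle protein gene. A further peak of replicate 2 lay equally far from an end of Cpr57A and an end of Obp57d. The peaks that belonged to neighbors had the higher medians of fold enrichment and width. Their median fold enrichment was 3.4 in replicate 1 and 3.03 in replicate 2, against 1.79 and 1.97 for the peaks that belonged to a cuticle protein gene. Their median width was 2103 and 1762 bp, against 660 and 816 bp. The ranges overlapped, from 1.32 to 6.25 for neighbors and from 1.35 to 4.07 for cuticle protein genes in replicate 1. A nearby peak of its own in both replicates was left for 7 of the 115 cuticle protein genes (6.09%), against 42.5% of all protein-coding genes and 11 of 179 chemosensory receptor genes (6.15%).

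**Figure D3:**
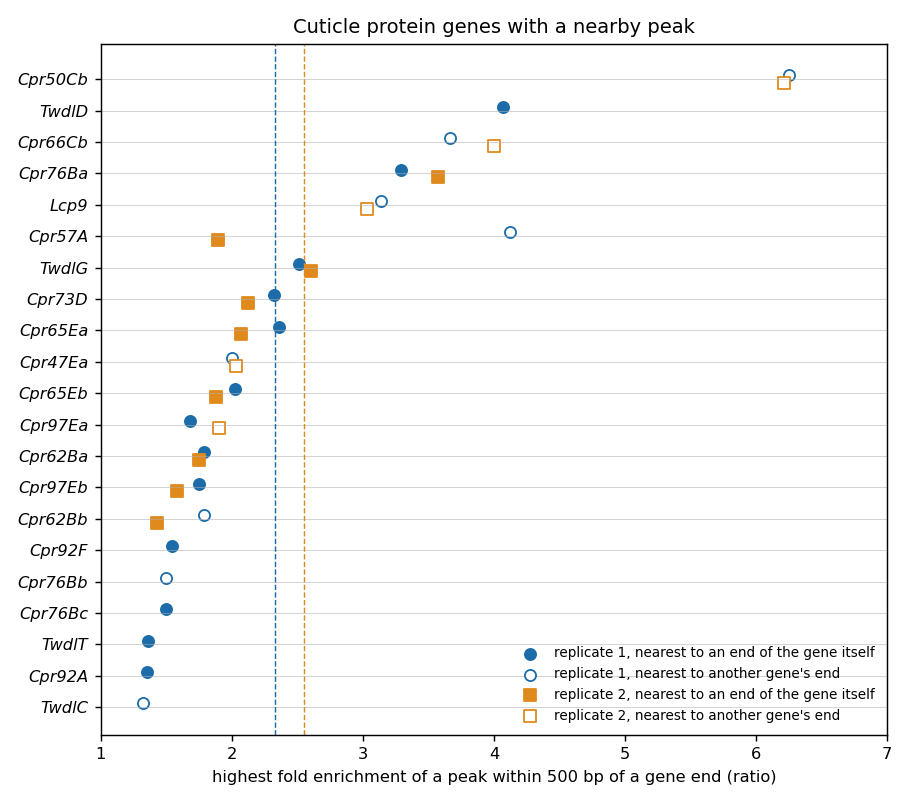
Fold enrichment of the highest nearby peak (x axis) of each cuticle protein gene with a peak (y axis) in replicates 1 and 2; filled points are peaks nearest to an end of the gene itself, including the tie at Cpr57A in replicate 2, and open points are peaks nearest to an end of another gene. Dashed lines mark the median of all peaks, 2.33 in replicate 1 and 2.55 in replicate 2, and the highest value, 6.25 at Cpr50Cb, is an open point.

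The 7 genes with a peak of their own in both replicates were 6 Cpr genes and 1 Twdl gene. Positions of peaks are those of replicate 1 on release 6. Cpr76Ba had the strongest, at 3L:19516087-19517332, with 3.29-fold enrichment in replicate 1 and 3.57-fold in replicate 2. Its summit lay 830 and 849 bp from the gene, and the nearest end of a gene outside the set, that of lncRNA:CR45731, was 11427 and 11408 bp away. TwdlG, a Tweedle gene, had values of 2.51 and 2.6 at 3R:4251181-4251840, with the summit 111 and 98 bp from its end. CG14644 was the nearest other gene there, at 442 and 455 bp. The peak of replicate 2 also covered an end of CG14644, so that TwdlG and CG14644 tied by the edges of that peak.

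A pair of adjacent genes, Cpr65Ea and Cpr65Eb, each had a peak far from any other kind of gene. At Cpr65Ea the peak lay at 3L:7086112-7086774, with values of 2.36 and 2.07, and its summit was 45 and 74 bp from the gene end. At Cpr65Eb it lay at 3L:7087207-7088475, with values of 2.02 and 1.88. The nearest end outside the set belonged to form3, a formin, at 8255 and 8284 bp from the first summit and 6930 and 7382 bp from the second. Other than the 2.36 at Cpr65Ea, these values were below the median of all peaks of their replicate.

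The last 3 of the 7 had other surroundings. Cpr73D had values of 2.32 and 2.12 at 3L:16957048-16958448, where the summit also lay inside Ogdh, a subunit of the mitochondrial 2-oxoglutarate dehydrogenase complex. Cpr62Ba had 1.79 and 1.75 at 3L:1831346-1832325, and Cpr62Bb lay near the same peak in replicate 1 and had a separate one, with 1.43, in replicate 2. Cpr97Eb had the weakest pair of values, 1.75 and 1.58, at 3R:27091063-27091332. Of the 7 genes, only Cpr76Ba and TwdlG had values above the median of all peaks in both replicates.

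Several of the strongest peaks near cuticle protein genes lay at shared or neighboring gene ends. The strongest, with 6.25 and 6.21 at 2R:13804912-13807198, covered an end of Cpr50Cb, but its summit lay inside stj, which encodes a subunit of voltage-gated calcium channels, 650 and 589 bp from an end of that gene. At Lcp9 a peak with 3.14 and 3.03 at 2R:24779521-24781439 covered both ends of the gene together with ends of egg, a histone methyltransferase, of asRNA:CR44067 and of CG3594, and the summit was nearest to CG3594, at 58 bp. Next to Cpr66Cb, a peak with 3.66 and 4.0 at 3L:8338661-8341528 had its summit 44 and 88 bp from an end of CG7083, and it also covered ends of Pex2, a peroxisome biogenesis gene, and Prim1, a DNA primase subunit. In these places the summit was nearest to an end of another gene. By the edges of the peak, Cpr50Cb and Lcp9 tied with their neighbors in both replicates, since the peak covered ends of both.

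Similar cases were found at 3 other genes. At Cpr47Ea a peak with 2.0 and 2.03 at 2R:11251845-11252371 had its summit inside the gene but nearer to an end of Or47a, an odorant receptor gene, at 224 and 228 bp. At Cpr57A the peak of replicate 1, with 4.12 at 2R:20549498-20552577, was nearest to BORCS7 and CG13430, and that of replicate 2, with 1.89, was the tie with Obp57d, an odorant-binding protein gene. Cpr97Ea changed between replicates, its own peak having 1.68 in replicate 1 while that of replicate 2, with 1.9, was nearest to CG14257. By the edges of the peak, that of replicate 1 was also nearest to CG14257. The gene to which a peak belongs could thus move with the summit. Cpr62Bb completes the 7 genes that had a peak in both replicates but not their own in both.

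The 7 genes with a nearby peak in replicate 1 alone mostly had weak ones. Their values were 1.5 at Cpr76Bb and Cpr76Bc, which shared a peak, 1.35 at Cpr92A, 1.54 at Cpr92F, 1.32 at TwdlC, 1.36 at TwdlT and 4.07 at TwdlD. The peak at TwdlC was nearest to RYa-R, a neuropeptide receptor gene, at 88 bp. Of these genes only TwdlD had an overlapping peak in replicate 2, with a fold enrichment of 3.62, and it lay 698 bp from the gene, outside the limit, where the peak of replicate 1 lay 232 bp away. The count of 14 genes in both replicates therefore leaves out 1 strong region that both replicates held.

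Neighbors were closer to the genes with a peak in both replicates than to the others by the median, a difference that was not tested. The 14 genes with a peak in both replicates had a median length of 1837 bp, and the nearest end of a protein-coding gene outside the set lay a median of 558 bp away. Of these genes, 6 (42.9%) had such an end within 500 bp. The 94 genes without a peak had a median length of 883.5 bp and a median distance to such an end of 2789.5 bp, and 15 of them (16.0%) had one within 500 bp. For the 7 genes with a peak in replicate 1 alone, the distance had a median of 4228 bp, and 1 gene (14.3%) had such an end within 500 bp. Of the genes with a peak in both replicates 7 lay in a cluster, and of those without a peak 74 did.

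Clusters were defined as at least 3 cuticle protein genes with no more than 20 kb between neighbors, and 15 clusters held 84 of the 115 genes. In clusters 7 of 84 genes (8.33%) had a nearby peak in both replicates, whereas outside them 7 of 31 (22.6%) did, beside 65.4% of all protein-coding genes. The median gene length was 869 bp in clusters and 1611 bp outside, and whether length bears on this difference was not tested. Peaks covered 2.21% of the 235.4 kb of the clusters in replicate 1 and 2.22% in replicate 2, against 11.8% and 10.2% of the chromosome arms. There were 3.82 and 3.4 peaks per 100 kb in the clusters, against 13.4 and 11.4 on the arms. In 9 of the 15 clusters, with 52 genes, no member had a nearby peak in either replicate. In 8 clusters no peak lay anywhere in the span in either replicate.

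The cluster from Lcp65Ag3 to Cpr65Az, at 3L:6130386-6161589, was the largest, with 17 genes of the Lcp65A and Cpr65A groups. No peak lay within its 31.2 kb, and the gap between the flanking peaks was 43.3 kb in both replicates. Gaps at least as long made up 1.13% of all gaps between neighboring peaks in replicate 1 and 1.52% in replicate 2. The median gap was 3286 and 4028 bp. Such shares, here and below, count gaps and not bases, and long gaps hold a larger share of the bases. Clusters with no peak in their span also have to lie in a gap longer than that span. Acp65Aa, an adult cuticle protein gene, and CG13297 lie inside the cluster and also had no nearby peak. On its left side the closest peak was the weak one beside Lcp65Ag3, and on its right side the closest was 11502 and 11481 bp away. The Lcp65Ag, Lcp65Ab and Cpr65Ax copies named above, whose likeness was not measured, lie in this cluster. Since reads aligning to more than 1 place were removed, the lack of peaks at these copies is uncertain.

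The cluster of 12 Twdl genes from TwdlM to TwdlD, at 3R:26619118-26641054, lay in a gap of 32.9 kb in replicate 1 and 33.4 kb in replicate 2. Gaps at least as long made up 1.89% and 2.53% of all gaps. The only peak near it was the one at TwdlD described above, at its right edge. The smaller cluster TwdlX to TwdlZ lay in a gap of 27.7 kb in both replicates, inside the longer gene goe, which had a peak near an end with 2.18 and 2.32. For this cluster, gaps at least as long made up 2.79% and 3.94% of all gaps. Twdl genes of these clusters thus had peaks at most at the border.

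The Ccp genes and the larval Lcp1 to Lcp4 genes showed the same absence of peaks. The 7 Ccp84A genes lay in a gap of 22.8 kb in both replicates, at 3R:6686728-6704903, and Lcp1 to Lcp4 in a gap of 22.6 kb, at 2R:8430115-8438495. Gaps at least as long made up 4.12% and 5.83% of all gaps for the Ccp84A genes, and 4.22% and 5.9% for Lcp1 to Lcp4. The genes Cpr64Aa to Cpr64Ad lay in a gap of 26.6 and 26.7 kb inside CG43367, which had a peak near an end with 2.12 and 2.41. For these genes the share of gaps at least as long was 3.01% and 4.29%. Cpr72Ea to Cpr72Ec lay in a gap of 17.4 kb in both replicates, and Cpr78Ca to Cpr78Cc in gaps of 16.8 and 16.9 kb. There the shares were 6.9% and 9.4% for Cpr72Ea to Cpr72Ec and 7.33% and 9.8% for Cpr78Ca to Cpr78Cc. Edg78E, a cuticle gene named for its response to ecdysone, and CG43702 lie in the last of these clusters and had no nearby peak either.

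**Figure D4:**
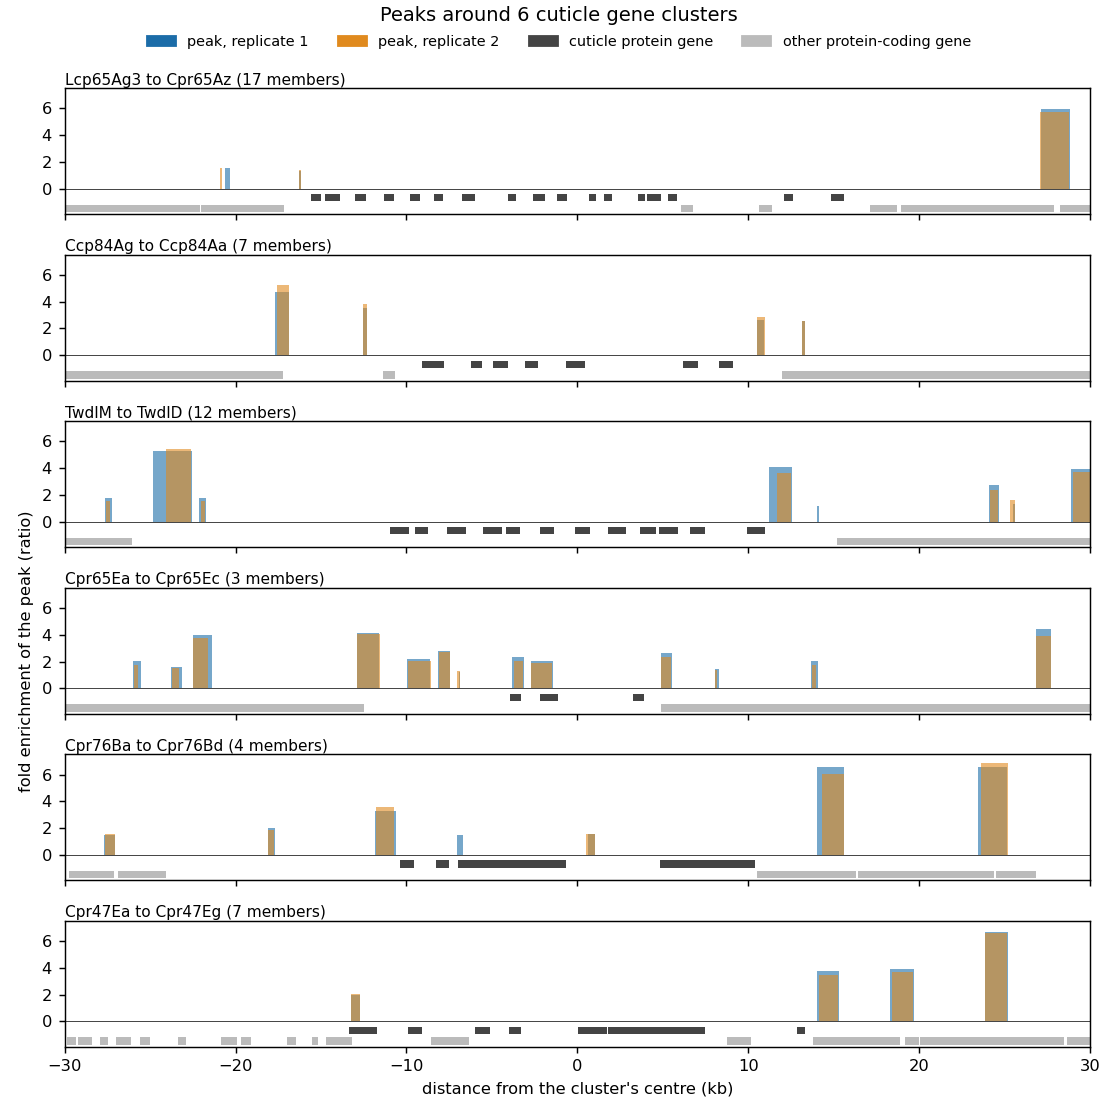
Fold enrichment of peaks (y axis) against the distance in kb from the center of each cluster (x axis, 30 kb to either side) for 6 clusters of cuticle protein genes, with the peaks of each replicate in its own color and brown where they overlap; dark bars are cuticle protein genes and grey bars other protein-coding genes. The empty stretch at the Lcp65Ag3 to Cpr65Az cluster is part of a gap of 43.3 kb between peaks. It holds the Lcp65Ag, Lcp65Ab and Cpr65Ax gene copies, at which the lack of peaks is uncertain.

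Other clusters held weak or isolated peaks. The 8 genes from Cpr49Aa to Cpr49Ah had no peak near an end, and their only peak lay inside Cpr49Ae, with 1.45 and 1.7. The other genes there, which include Or49a, an odorant receptor gene, had no nearby peak. In the cluster Cpr67Fa1 to Cpr67Fb a peak of 1.35 was present in replicate 1 and none in replicate 2. At the other extreme, peaks covered 24.6% and 22.3% of the cluster Cpr65Ea to Cpr65Ec, the highest shares of the 15 clusters and above the shares of the arms. The cluster TwdlF to TwdlV followed in replicate 1 with 7.49% and in replicate 2 with 13.2%.

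Peaks deeper inside a gene were not counted so far, and 4 genes had them in both replicates. Cpr73D had the strongest, with 7.81 and 7.82 at 3L:16955281-16956331, inside Ogdh as well. Cpr51A had 3.65, with the summit also inside CG30197, in replicate 1 and 3.5 in replicate 2, and Cpr50Cb had 1.77 and 1.52, besides the peak inside Cpr49Ae. Counting any peak in the span or within 500 bp of it raised the number to 16 genes in both replicates (13.9%), against 67.5% of all protein-coding genes, with Cpr49Ae and Cpr51A added.

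Other genes of cuticle formation are given here by their roles, and as a list they were near or below the share of all protein-coding genes. Of 37 genes on a list of this pathway, 21 (56.8%) had a nearby peak in both replicates, against 65.4% of all protein-coding genes. In 15 of the 37 it was their own peak, where 42.5% of all protein-coding genes had one. Their median fold enrichment was 2.99 (range 1.37 to 5.91). Of the genes of chitin synthesis and its ordering, kkv, the chitin synthase of cuticle, had 4.44 and 4.16. That peak was not its own in both replicates. Chs2, the chitin synthase of the gut, had none. Of the 5 chitin deacetylase genes, serp, verm and Cda9 had peaks of their own, with 1.66 and 1.7, with 1.75 and 1.63 and with 4.96 and 4.18, while Cda4 and Cda5 had none. The gene knk, needed to order chitin, had 1.29 and 1.46. The gene rtv, of the same list, had 5.83 and 5.74 at a peak that covered an end but was not its own in both replicates. The genes serp, verm, knk and kkv, with the epidermal transcription factor grh, which had 3.35 and 3.42, are the epidermis markers mentioned above.

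Genes for chitin turnover and for tanning and pigment were mixed. Of the 10 chitinase genes, 4 had a nearby peak in both replicates (Cht2, Cht7, Cht8 and Cht11), beside the 65.4% of all protein-coding genes, and that of Cht2, with 3.39 and 3.08, was its own. Among 7 genes of tanning and pigment, 5 had one, near that background. Of these, ple, the tyrosine hydroxylase that neurons also use for dopamine, had 3.19 and 2.8. Ddc, the dopa decarboxylase of the same pathway, had 3.45 and 3.15, and the others were y, b and stw. The gene e had 1.32 in replicate 1 alone, and t had none. Proteins of the matrix itself had peaks at resilin, with 6.21 and 5.61 at a peak that was not its own in both replicates. They also had peaks at dpy and pio, with 3.03 and 2.98 and with 3.3 and 3.32.

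Proteins of the cuticle and its chitin that carry other names were mixed too. The chitin-binding proteins obst-B, obst-E and Gasp had peaks of their own, with 2.4 and 2.29, with 2.2 and 2.08 and with 2.08 in both replicates, and obst-A had 1.39 in replicate 1 alone. The cuticle protein genes Edg78E, Edg84A, Acp1 and Pcp had no nearby peak in either replicate. They lay 6032, 968, 15539 and 1014 bp from the nearest peak in replicate 1.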

How the data were processed

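ATAC-seq was performed on MB nuclei of naive flies in 2 biological replicates. Reads were trimmed by the authors (Trimmomatic, version 0.39) and aligned to release 6, dm6 (Bowtie2, version 2.4.1). Their positions were corrected for the transposase offset. The authors kept uniquely placed, non-duplicate reads on the chromosomes. Peaks were called separately per replicate (MACS2, version 2.1.2, q threshold 0.01). The values deposited by the authors for a peak are its position, its fold enrichment as a ratio over the local background, the -log10 of its p-value, the -log10 of its q-value and a score. Of these, positions, fold enrichment and -log10 q were used here. No peak of replicate 1 had a -log10 q under 2.02, and none of replicate 2 one under 2.06.

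Genes came from the RefSeq table for release 6, with 17684 of 17872 genes on the 6 arms. A peak belonged to the gene with the end nearest to its summit. The members and lists were chosen with earlier results of these data known. The genes named were all members with a nearby peak, clusters as a whole, the 3 members just outside the limit and the 3 farthest from a peak, neighbors of the peaks described, the listed pathway genes, and chemosensory and ribosomal families. Other neighbors were named after their values were seen. No test was run. The steps were tested on simulated data. Alternatives were other windows, -log10 q minimums of 5 and 10, either replicate, each replicate alone, gene spans, cluster gaps, and, chosen after seeing the data, genes of up to 2000 bp and a gene's own peaks. Promoter sequences and motifs were not analysed here. The scripts ran in Python (version 3.11.15) with pandas (version 2.3.3), numpy (version 2.4.6) and matplotlib (version 3.10.9).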

Additional observations from a re-analysis of the deposited data

How the results depend on the processing

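The share of cuticle protein genes with a nearby peak, 12.2%, was 6.96% with windows of 0 bp and 18.3% with windows of 1000 bp. It was 18.3% for a peak in either replicate, 6.09% for the gene's own peaks, and 12.2 to 18.3% with each replicate left out in turn. The share of all protein-coding genes, 65.4%, was 54.4%, 61.6% and 70.3% with windows of 0, 250 and 1000 bp, 62.4% with a -log10 q of at least 10, 68.2% for either replicate, 67.5% over gene spans, 50.0% for genes of up to 2000 bp, 42.5% for own peaks and 65.6 to 68.0% with a replicate left out. The median fold enrichment, 2.22, was 2.39 with windows of 0 bp, 2.47 with 1000 bp, 2.39 with the -log10 q limit of 10 and 2.0 to 2.05 with a replicate left out. The share of peaks belonging to neighbors, 33.6% as the mean of the replicates, was 27.5% and 50.0% with windows of 0 and 1000 bp, 21.2% by peak edges and 31.6 to 35.7% with a replicate left out. The median distance, 5521 bp, was 6783 bp with the limit of 10 and 5288 to 5754 bp with a replicate left out. The clusters without a nearby peak, 9 of 15, numbered 7 to 11 of 15, and 10 of 16 and 9 of 16 with genes at most 10 kb and 50 kb apart. Of 52 alternatives, 29 moved a value by less than the spread between replicates or, for counts, 1.5 times. In the 11 alternatives run for both shares, that of cuticle protein genes was below that of all protein-coding genes. Transcription start sites alone could not be used, since the gene table gives no strand, and promoter motifs were not run. No paired analysis was possible because there was only 1 condition. Without read counts, a peak missed for lack of depth and closed chromatin cannot be told apart.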
